A study of Mus musculus with 8 samples.

Results

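The 10 genes described here are the Notch receptors Notch1 and Notch2, the ligands Dll1, Dll4 and Jag1, the target Hes1, and the secretory fate regulators Atoh1, Gfi1, Spdef and Neurog3. They were taken by gene symbol from a read count table of 13420 mouse genes, and all 10 had a row. The libraries came from small intestine organoids, which are epithelial cultures grown in a gel. WT organoids carried the mTmG reporter with membrane-bound tdTomato, on C57BL/6, and per the study's methods Rosa26-CreERT2. Cancer organoids carried Villin-CreERT2 and engineered alleles that include Apc fl/fl and Tr53fl/R172H, with the fluorescent protein Dendra2, on a C57BL/6 (F6) background. Villin drives the recombinase in intestinal epithelium. All cultures received EGF, Noggin and R-spondin1. Each genotype was grown alone (pure) or together at 2 parts WT to 1 part cancer (mixed). Live cells were sorted by color at day 3 and sequenced by CEL-Seq, a protocol that tags the 3′ end of each transcript. The 4 groups of 2 libraries were pure WT (wells A01 and A05), mixed WT (A02 and A06), pure cancer (A03 and A07) and mixed cancer (A04 and A08). The sources used here do not say whether the 2 wells of a group were separate cultures, so p-values measure only the spread between these libraries, which may be technical.

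In the crypt, Notch signaling sorts progenitors into absorptive and secretory cells by lateral inhibition. A cell that displays Dll1 or Dll4 activates Notch1 and Notch2 on its neighbours, whose cleaved receptors join RBPJ in the nucleus and switch on Hes1. Hes1 represses Atoh1. Cells that escape this repression keep Atoh1, the master factor of the secretory lineage, and with it its downstream factors: Gfi1 and Spdef in goblet and Paneth cells, and Neurog3 in the enteroendocrine branch.

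Total reads on genes ranged from 73109 (mixed WT, A02) to 4733121 (mixed cancer, A04). This depth set what could be seen of genes expressed at so low a level. Levels are given in CPM, the read count scaled to the TMM-normalized library size. A library with 0 reads allows a level of up to that of 3 reads, which was 0.587 CPM in A04 but 39.3 CPM in A02. Intervals and these limits cover counting error only, and treat every read as independent. Libraries held 2.27 (A02) to 6.84 (A04) reads per distinct molecule barcode. Copies of the same molecule were thus counted repeatedly, and the intervals are too narrow even for counting error. Of 9 genes of epithelial identity such as Epcam and Krt8, all were tested, with a summed level of 4766 to 16248 CPM per library. Of these, Cdx1, Cdx2, Krt8 and Cldn7 were called lower in cancer (Cdx1 359-fold by pooled reads, the others by log2 fold changes of −3.04, −1.24 and −1.13). Of the lists for other cell types, 2 of 7 endothelial genes had a row, with a summed level of 0 to 13.1 CPM, and 3 of 9 mesenchymal genes, with 0 to 7.31 CPM. The immune list was measured through Cd68, at 0 to 2.27 CPM in WT and 0 to 68.8 CPM in cancer libraries, and was called higher in cancer (log2 fold change 4.26 ± 1.16), and its part in the results was not tested. Trp53, a targeted gene, was lower in cancer than in WT (log2 fold change −1.75 ± 0.53 (SE), adjusted p = 0.0264 by edgeR's quasi-likelihood test). Apc, with 0 to 22 reads per library, was not tested, and 3′ tags do not check its deletion. The Wnt targets Nkd1, Notum and Tnfrsf19 were called higher in cancer, with 1179, 420 and 443 reads there (1050, 363 and 394 of them in A04) and 27, 4 and 25 in WT. Axin2, Rnf43 and Sp5, also Wnt targets, were tested and not called over both cultures. Their pooled level in WT over that in cancer was 0.935, 0.274 and 2.38. Bulk libraries cannot tell fewer cells of a type from less RNA per cell.

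Atoh1 had reads in all 4 WT libraries and in none of the 4 cancer libraries. It was the only one of the 10 whose genotypes did not overlap in CPM. All 4 cancer libraries lay below all 4 WT libraries, and 4.12% of genes with a read had that order in that direction. In the mixed WT libraries A02 and A06 this rests on 1 and 2 reads. Neurog3 had 222 reads in WT and 4 in cancer. It was at least 13.03-fold lower in cancer in the pure cultures and 20.5-fold lower in the mixed cultures. Of the 10 genes, 3 passed the filter on low counts (Hes1, Atoh1 and Neurog3). Atoh1 and Neurog3 passed it through the WT libraries, where they were high, so a difference was built into their being tested. Both were called lower in cancer over both cultures, at an adjusted p below 0.05, among 5264 genes of which 14.2% were called in either direction and 7.37% were called lower. Both were also called lower in pure cancer against pure WT, where 9.95% of genes were called and 4.84% were called lower.

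**Figure D1:**
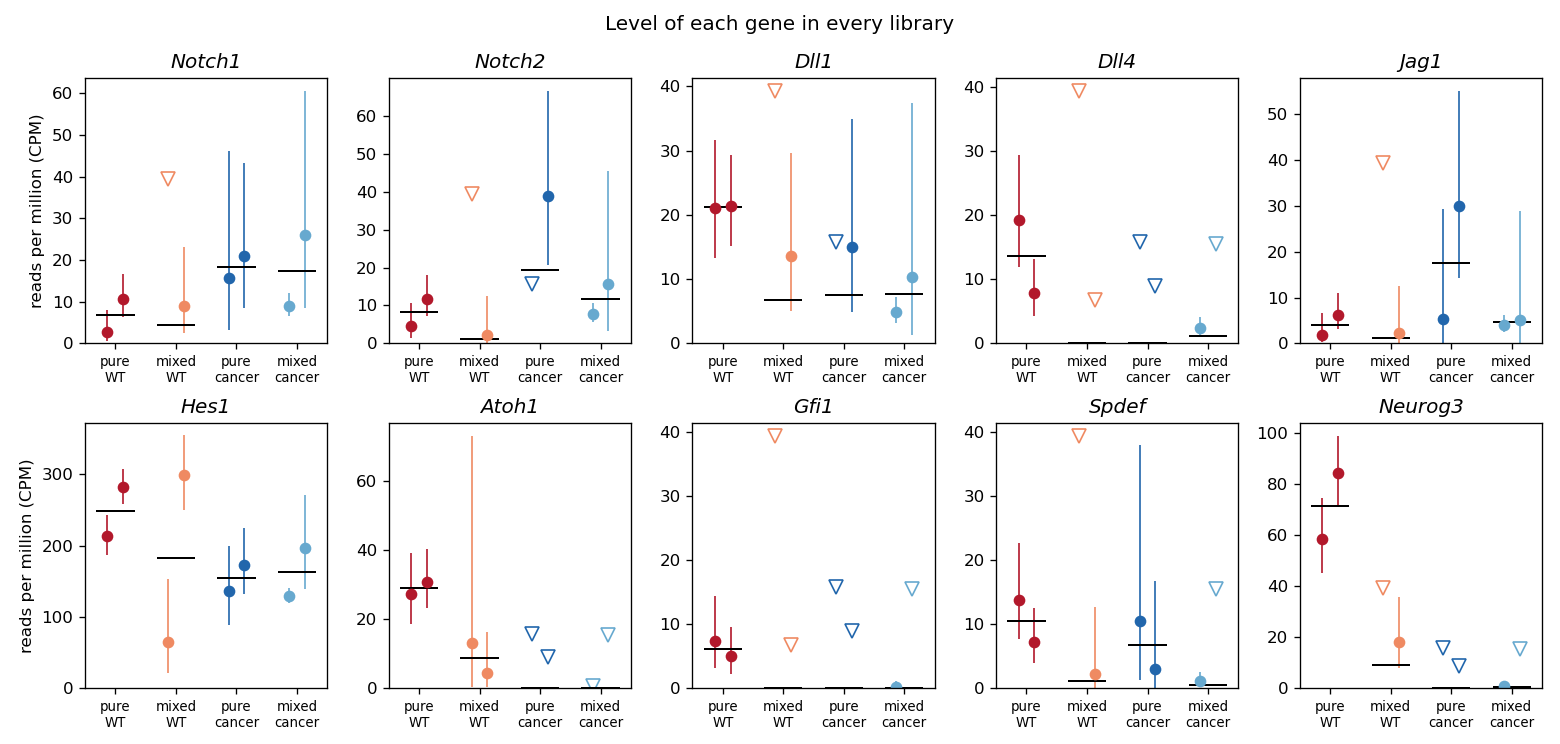
Level of the 10 genes in each of the 8 libraries, in CPM on the vertical axis (each panel has its own scale), by group. Points are libraries with the exact 95% Poisson interval of their reads, copies of the same molecule included. Black lines are group means, and open triangles mark, for a library with 0 reads, the level of 3 reads. Atoh1 lies above 0 in every WT library and in no cancer library, while Hes1 overlaps between groups.

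Atoh1 (GRCm38, chr6:64729125-64731245, + strand), a basic helix-loop-helix factor required for secretory cells, had 30 and 55 reads in pure WT libraries A01 and A05. Mixed WT libraries A02 and A06 had 1 and 2 reads. Pure cancer and mixed cancer had 0 reads in all 4 libraries, including A04, the deepest library of the series. All 4 WT libraries therefore lay above all 4 cancer libraries, an order found for 4.12% of the 13416 genes with a read. Mixed WT lay at 13.1 CPM in A02 and 4.53 CPM in A06. In A03, A07 and A08, 0 reads allow up to 15.7, 8.98 and 15.6 CPM, so the order of mixed WT and these libraries is not resolved. Pure WT averaged 29.2 ± 2.44 CPM (SD, n = 2). Mixed WT averaged 8.82 ± 6.07 CPM (SD, n = 2). Against the level of 3 reads over the pooled cancer libraries (0.515 CPM), Atoh1 was at least 50.4-fold lower in cancer than in WT (adjusted p = 0.00543 by edgeR). This bound rests on A04 and was at least 6.21-fold without it. In the pure cultures alone the bound was at least 5.18-fold lower in cancer (adjusted p = 0.0488), because the pure cancer libraries were shallow. This call was lost with DESeq2 (adjusted p = 0.127) and with median-of-ratios factors (adjusted p = 0.0525). Without A01, A04, A05 or A06, Atoh1 no longer passed the filter and was not tested in either comparison, and without A03 or A07 its adjusted p in the pure cultures was 0.105 and 0.24. In the mixed cultures the 3 reads of the WT libraries lay at the level of 3 reads, so no fold is given (adjusted p = 0.0996).

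Neurog3 (GRCm38, chr10:62133090-62134763, + strand), which starts the enteroendocrine program, had 64 and 150 reads in pure WT libraries A01 and A05. Mixed WT library A06 had 8 reads and A02 had 0. Among the cancer libraries, A04 had 4 reads and the other 3 had 0. Pure WT thus lay above every other library, and the order of the 4 group means was pure WT, mixed WT, mixed cancer, pure cancer, where mixed WT overlapped with mixed cancer and mixed cancer with pure cancer. Pure WT averaged 71.4 ± 18.2 CPM (SD, n = 2). Mixed WT averaged 9.06 ± 12.8 CPM (SD, n = 2). The 4 cancer reads were 0.686 CPM of the pooled cancer libraries, against 65.5 CPM in the pooled WT libraries, a 95.4-fold difference with an exact 95% counting interval of 36.8 to 353 (adjusted p = 0.000345 by edgeR). That value sets mostly pure WT reads (214 of 222) against mixed cancer library A04, which held all 4 cancer reads, and without A04 only a bound of at least 15.7-fold was left. Without A06 this call was lost, since A02, then the only mixed WT library, had 0 reads and the fit gave no finite estimate. Pure cancer was at least 13.03-fold lower than pure WT (adjusted p = 0.00315), and without A05 the adjusted p was 0.0986. Between the mixed cultures, cancer was 20.5-fold lower than WT by pooled reads (interval 5.49 to 93.0) and missed the threshold (log2 fold change −4.04 ± 1.26 (SE), adjusted p = 0.0602). None of the 10 genes was called there, where 6.42% of all genes were called and 4.41% were called lower. Leaving out A02, A03 or A07 brought Neurog3 past it, with adjusted p-values of 0.0141, 0.0197 and 0.0176.

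The promoters of Atoh1 and Neurog3 are shown because these are the genes called. Each run is the 250 bases before the RefSeq start in GRCm38.p6, 5′ to 3′ on the + strand, with capitals at any match to the RBPJ core (TGGGAA), the N-box bound by HES proteins (CACNAG) or the E-box (CANNTG), searched on both strands.
Atoh1, chr6:64728875-64729124: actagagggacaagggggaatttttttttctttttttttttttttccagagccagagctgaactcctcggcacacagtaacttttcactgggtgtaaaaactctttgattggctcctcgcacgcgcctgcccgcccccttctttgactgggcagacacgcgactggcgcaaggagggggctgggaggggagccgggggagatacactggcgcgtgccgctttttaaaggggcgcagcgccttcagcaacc
Neurog3, chr10:62132840-62133089: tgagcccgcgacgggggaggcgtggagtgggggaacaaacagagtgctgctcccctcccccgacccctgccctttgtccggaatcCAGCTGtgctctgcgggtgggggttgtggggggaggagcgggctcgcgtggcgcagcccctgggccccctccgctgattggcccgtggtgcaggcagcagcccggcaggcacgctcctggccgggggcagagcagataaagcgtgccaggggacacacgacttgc
The Neurog3 window held 1 E-box, CAGCTG, from −165 to −160 relative to the start, and the Atoh1 window held none of the 3 motifs. Among 32851 windows of the same 250 bases before a start, 21.6% held TGGGAA, 36.7% held CACNAG, 66.2% held CANNTG, 13.001% held CAGCTG and 14.4% held CAGATG. The match CAGCTG is itself an E-box. Of the 10 genes, 9 had a promoter entry, all but Hes1. TGGGAA occurred in the window of Spdef alone, CACNAG in those of Notch1, Notch2 and Dll4, and a CANNTG in those of Jag1, Gfi1, Dll1 and Neurog3. CAGATG was found in none of the 9 genes. A match of letters describes the window and is not evidence of binding.

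Gfi1 and Spdef, zinc finger and ETS factors of goblet and Paneth cells, were measured too sparsely for the test. Gfi1 had 8 reads in A01 and 9 in A05, both pure WT, 1 read in mixed cancer library A04 and 0 in the other 5 libraries. Its pooled level was 5.02 CPM in WT and 0.172 CPM in cancer, a 29.2-fold difference with a counting interval of 4.58 to 1222 that rests on 1 read, from A04, and at least 1.199-fold without that library. Spdef had 15 and 13 reads in A01 and A05 (pure WT), against 0 and 1 in A02 and A06 (mixed WT). It had 2 and 1 reads in A03 and A07 (pure cancer), and 6 and 0 in A04 and A08 (mixed cancer). Its pooled level was 5.54-fold lower in cancer than in WT (interval 2.55 to 13.3), but the library levels overlapped, with 10.5 CPM in A03 against 7.31 CPM in A05. Within cultures Spdef was 1.71-fold lower in cancer in both the pure (interval 0.527 to 8.76) and the mixed cultures (0.0371 to 14.1), and each interval spanned 1. Without A04 its pooled difference was 2.05-fold (0.634 to 10.5). A04 held most of the cancer reads and pure WT most of the WT reads, so ratios pooled over both cultures mix genotype with culture.

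Hes1 (GRCm38, chr16:30064384-30067796, + strand), the repressor through which Notch holds back Atoh1, was the only one of the 10 with reads in every library. It had 234 and 502 reads in A01 and A05 (pure WT), against 5 and 132 in A02 and A06 (mixed WT). It had 26 and 58 reads in A03 and A07 (pure cancer), and 664 and 38 in A04 and A08 (mixed cancer). Pure WT averaged 248 ± 48.1 CPM and mixed WT 182 ± 165 CPM (SD, n = 2 each). Mixed cancer averaged 164 ± 47.5 CPM and pure cancer 155 ± 26.3 CPM (SD, n = 2 each). Neighbours in this order did not separate: the mixed WT libraries, at 65.5 and 299 CPM, lay on both sides of all the others. By pooled reads Hes1 was 1.91-fold lower in cancer (counting interval 1.73 to 2.11). With the spread between libraries taken into account, the log2 fold change over both cultures was −0.51 ± 0.39 (SE, adjusted p = 0.481 by edgeR), and without A06 it turned to 0.32 (adjusted p = 0.681). Hes1 was called in none of the 6 comparisons. Its log2 fold change was −0.67 ± 0.54 in the pure cultures (adjusted p = 0.541) and −0.34 ± 0.56 in the mixed cultures (adjusted p = 0.848). The genes whose log2 CPM followed Hes1 most closely over the 8 libraries were Eci1 (Pearson r = 0.995), Tcn2 (r = 0.975) and Socs2 (r = 0.963). These are descriptions over points that share libraries and depth, and Tcn2 and Socs2 had 0 reads in A02.

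The receptors were sparse in all groups. Notch1 had 3 and 19 reads in A01 and A05 (pure WT), against 0 and 4 in A02 and A06 (mixed WT). It had 3 and 7 reads in A03 and A07 (pure cancer), and 46 and 5 in A04 and A08 (mixed cancer). Pure WT averaged 6.71 ± 5.61 CPM and pure cancer 18.3 ± 3.68 CPM (SD, n = 2 each), and both pure cancer libraries lay above both pure WT libraries. Pooled over both cultures, the ratio of cancer to WT was 1.36 (counting interval 0.849 to 2.25), and within cultures 2.49 (1.05 to 5.48, pure) and 1.24 (0.457 to 4.74, mixed). With distinct molecular barcodes in place of reads, scaled like CPM but to each library's total barcodes without TMM factors, the direction between the pure cultures was not kept (mean level 21.6 in WT and 19.5 in cancer). Notch2 had 5 and 21 reads in A01 and A05, against 0 and 1 in A02 and A06. It had 0 and 13 reads in A03 and A07, and 40 and 3 in A04 and A08. The pure cancer libraries, at 0 and 38.9 CPM, spanned the whole range of the other groups, and the pooled ratio of cancer to WT was 1.21 (interval 0.749 to 1.99), with 2.74 (1.29 to 5.52) in the pure and 4.20 (0.714 to 169.6) in the mixed cultures. On the same barcode scale, Notch2 had a mean level of 21.1 in pure WT and 13.01 in pure cancer, the opposite order. Without A04, the pooled WT level was 0.367 of the cancer level for Notch1 (0.187 to 0.745) and 0.357 for Notch2 (0.186 to 0.71). The cancer reads of these 2 ratios came from few molecules. A03, A07 and A08 held 1, 3 and 4 barcodes for Notch1 and 0, 3 and 3 for Notch2. The WT libraries held 18 and 15. Neither receptor passed the filter on low counts, and these intervals count reads and cover counting error only. A difference between the genotypes is therefore not resolved, also where an interval lies to 1 side of 1. For both, as for Jag1, the order of group means in CPM was pure cancer, mixed cancer, pure WT, mixed WT (by barcodes this order held for Jag1 but for neither receptor), and libraries of neighbouring groups overlapped, except between pure and mixed WT for Notch2 and between pure and mixed cancer for Jag1. Neither exception is resolved. Jag1 had 1 read in each of A03 and A08, at 5.25 and 5.19 CPM. For Notch2, 0 reads in A02 allow up to 39.3 CPM, above both pure WT libraries (4.58 and 11.8 CPM).

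The Delta ligands had their highest mean level in pure WT. Dll1, which marks secretory progenitors, had 23 and 38 reads in A01 and A05 (pure WT), against 0 and 6 in A02 and A06 (mixed WT). It had 0 and 5 reads in A03 and A07 (pure cancer), and 25 and 2 in A04 and A08 (mixed cancer). The pure WT libraries were nearly equal, at 21.2 ± 0.218 CPM (SD, n = 2), and above the 6 others, which ran from 0 to 15.0 CPM. For A02 this order is not resolved, since 0 reads there allow up to 39.3 CPM. Nor is it for A06, A07 and A08, whose counting intervals reach up to 29.6, 34.9 and 37.5 CPM. Dll4 had 21 reads in A01 and 14 in A05, 12 reads in mixed cancer library A04 and 0 in the other 5 libraries. By pooled reads, cancer was lower than WT by 3.60-fold for Dll1 (interval 2.33 to 5.67) and 5.02-fold for Dll4 (interval 2.54 to 10.6). Within cultures Dll1 was 2.23-fold lower in pure cancer (0.905 to 7.11) and 2.28-fold lower in mixed cancer (0.769 to 5.63), both intervals spanning 1. Dll4 was at least 2.13-fold lower in pure cancer, and the mixed cultures gave no fold. Without A04 the pooled difference of Dll1 was 2.03-fold (0.931 to 5.23) and that of Dll4 at least 2.47-fold. Jag1, a ligand of the Serrate family, had 2 and 11 reads in A01 and A05, against 0 and 1 in A02 and A06. It had 1 and 10 reads in A03 and A07, and 21 and 1 in A04 and A08. The ratio of cancer to WT was 4.63 (interval 1.88 to 11.2) in the pure cultures, 2.15 (0.347 to 88.6) in the mixed cultures and 1.37 (0.714 to 2.77) pooled, where A04 weighs most. The reads of the pure cultures came from 5 barcodes in WT and 5 in cancer, so the first interval is too narrow. Without A04 the pooled WT level was 0.247 of the cancer level (0.106 to 0.584), again an interval on reads. Pure cancer library A07, at 29.9 CPM from 4 barcodes, stood above all the others.

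**Figure D2:**
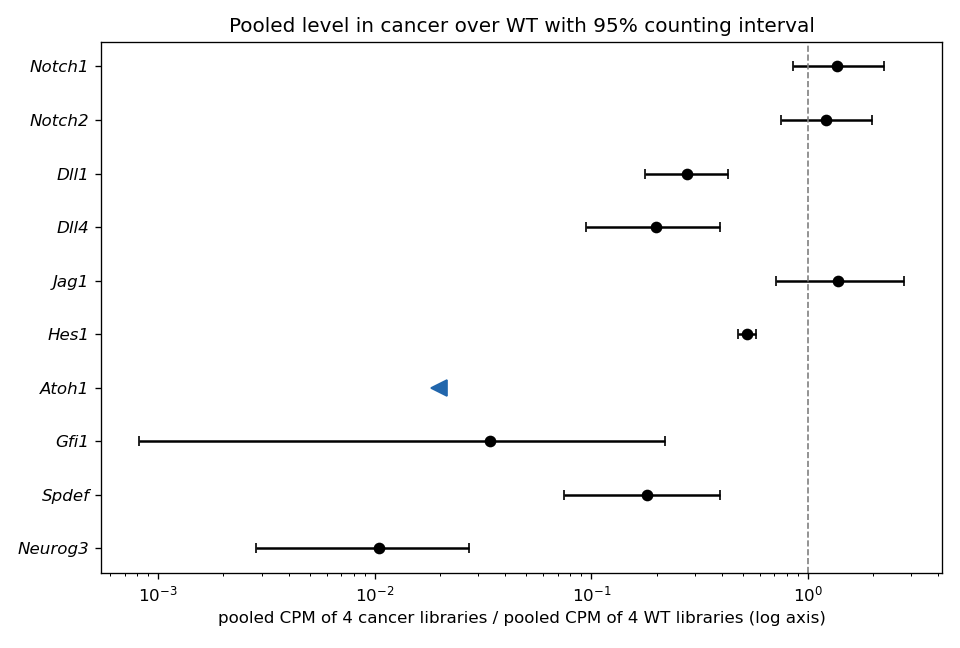
Pooled CPM of the 4 cancer libraries divided by pooled CPM of the 4 WT libraries for each gene, on a log axis. The 95% exact interval covers counting error only and treats every read as independent, so it is too narrow. The arrowhead marks Atoh1, with 0 cancer reads, at its bound of at least 50.4-fold lower. Neurog3 lies at 95.4-fold lower, and the intervals of Notch1, Notch2 and Jag1 span 1. The pools are mostly pure WT and mixed cancer A04, so the ratios mix genotype with culture.

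Fitted without the filter on low counts, all 10 genes could be tested. Atoh1 and Neurog3 were then called in pure cancer against pure WT, where 4.44% of 13416 genes were called, and over both cultures, where 7.1% were called. None was called between the mixed cultures, where 3.12% of genes were called. Of the 7 sparse genes, Notch1, Notch2 and Jag1 had fitted log2 fold changes above 0 over both cultures (1.15, 1.81 and 1.63) and Dll1 and Spdef below (−1.05 and −0.79), with adjusted p-values of 0.387 to 0.999. Dll4 and Gfi1 had groups with 0 reads in both genotypes and gave no finite estimate. DESeq2 called none of the 7 either, and gave no adjusted p for Dll4, Gfi1 and Spdef over both cultures.

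Mixing with cancer organoids was the second question. In WT cells, both mixed libraries lay below both pure libraries for 7 of the 10 genes (Notch2, Dll1, Dll4, Atoh1, Spdef, Gfi1 and Neurog3). This order held for 27.4% of all genes with a read, and A02 was too shallow to show most of these 7 genes at their pure WT level. Of 5264 genes 0.741% were called, none of the 10 among them. By pooled reads, mixed WT was lower than pure WT by 4.82-fold for Neurog3 (interval 2.40 to 11.3) and 5.11-fold for Atoh1 (interval 1.69 to 25.3, from 3 reads). In the fit, the log2 fold changes were −2.37 ± 0.94 (SE, adjusted p = 0.363) for Neurog3 and −2.18 (adjusted p = 0.662) for Atoh1. Hes1 was at −0.30 ± 0.54 (adjusted p = 0.924), and without A02 at 0.23 (adjusted p = 0.942). Without the filter 0.507% of genes were called, again with none of the 10.

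In cancer cells, none of the 10 was called on mixing. Over all genes 0% were called with the filter and 0% without it by edgeR, and 69 genes had an unadjusted p under 0.05 with the filter. DESeq2 also called 0. Hes1 was at 0.03 ± 0.56 on the log2 scale (adjusted p = 1). Atoh1 had 0 reads on both sides, so it has no fold, and the 4 Neurog3 reads of mixed cancer library A04 lay under what 0 reads in pure cancer allow. The difference between the mixing effects of WT and cancer cells was called for 0.076% of genes, and for 0.0745% without the filter, none of them among the 10. Hes1 differed by −0.33 ± 0.78 (log2, adjusted p = 0.968).

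The rest of the Notch pathway showed few calls, beside 14.2% of all tested genes called over both cultures. With so few of its genes tested, these counts do not set the pathway apart from that share. Over both cultures, 0 of 7 tested genes of ligand and receptor processing were called (gamma-secretase, ADAM proteases, glycosyltransferases), with a median log2 fold change of −0.07 beside 0.04 over all tested genes. Neither of 2 tested receptor modulators was called, nor any of 6 nuclear complex genes, whose median was 0.58. Rbpj, the DNA-binding partner of the cleaved receptor, had a log2 fold change of 1.41 ± 0.62 (SE, adjusted p = 0.148). Among 5 tested Notch targets other than Hes1, with a median of 0.07, Ccnd1, a cell cycle cyclin, rose in cancer (1.31 ± 0.34, adjusted p = 0.00807 by edgeR). That call was lost without A01 or A07. Jag2, the only other ligand tested, was not called in cancer against WT (0.59 ± 0.80, adjusted p = 0.724). Its reads were 2 and 3 in A01 and A05 and, after mixing, 4 and 17 in A02 and A06, a log2 fold change of 4.55 ± 1.21 that missed the threshold (adjusted p = 0.0924).

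Of 8 tested secretory fate factors outside the 10 genes, 1 was called over both cultures, beside 14.2% of all tested genes. Mlxipl, a glucose-responsive factor, had 78 reads in WT and 5 in cancer, a 26.8-fold lower pooled level (interval 11.0 to 84.9, adjusted p = 0.00458 by edgeR). It was no longer called without A05 or A06. Ascl2, a Wnt-driven factor of stem cells placed on this list, was called lower in pure cancer against pure WT (a fall by 2.0 on the log2 scale, SE 0.63, adjusted p = 0.0437) but not over both cultures (−0.44 ± 0.45, adjusted p = 0.62). The summed level of the list was 249 to 894 CPM in WT and 723 to 1172 CPM in cancer libraries. Xbp1, a factor of secretory capacity, contributed up to 2340 reads (A04), while 13 of 23 factors had 0 reads in pure cancer.

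Most of the tested genes that mark mature secretory cells were called lower in cancer over both cultures, beside 7.37% of all tested genes. Many of these markers passed the filter through their WT level, like Atoh1 and Neurog3, so their being called was partly built in (Mmp7, Spink4 and Cpe were not high in WT alone). Fold values are of pooled reads, WT over cancer, since many had 0 reads in a cancer group. Enteroendocrine markers summed to 447 to 1064 CPM in WT and 10.4 to 36.7 CPM in cancer libraries, and 7 of 8 tested were called lower. The 6 with the smallest adjusted p were the hormones Cck (374-fold lower), Gip (at least 259.6-fold), Tac1 (at least 75.1-fold) and Ghrl (378-fold, from 1 cancer read, interval 67.2 to 15008) and the granins Chgb (239-fold, from 2 cancer reads, interval 65.5 to 1983) and Chga (201-fold, from 1 cancer read, interval 35.4 to 8013), with adjusted p-values of at most 9.25e-05. Cpe, the 1 tested enteroendocrine marker not called, was the only one of that list with reads in pure cancer (7 in A03 and 12 in A07). It also held 146 of the 158 reads of the list in A04. Goblet markers summed to 2949 to 4062 CPM in WT and 481 to 1165 CPM in cancer. Of 7 tested, 5 were called lower: Atoh1 itself, which is on that list, with Tff3 (471-fold), Agr2 (153-fold), Zg16 (777-fold, from 1 cancer read, interval 139 to 30764) and Fcgbp (206-fold). Spink4, another goblet marker, made up most of what the cancer libraries held, with 2295 reads in A04.

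Paneth markers summed to 1311 to 5441 CPM in WT and 553 to 892 CPM in cancer. Of 7 tested, 6 were called lower, among them Lyz1, the antimicrobial lysozyme (305-fold), Ang4 (359-fold), Reg4 (358-fold), Itln1 (109-fold), Guca2b (199.9-fold) and Pla2g2a (55.9-fold). Mmp7, the protease that activates defensins in Paneth cells, was called higher (log2 fold change 2.92 ± 0.37, adjusted p = 2.53e-06 by edgeR). It made up most of the Paneth marker reads of each cancer library, such as 2674 of 2825 in A04. Pla2g2a was the only gene of the lists called between mixed and pure WT (a log2 fold change of −2.55 ± 0.61, adjusted p = 0.0494). The absorptive side fell too. Of 9 tested enterocyte markers, 8 were called lower, among them Alpi (log2 fold change −7.46), Apoa1 with 550 reads in WT and 1 in cancer, Fabp2 with 361 and 2, Fabp1 with 369 and 1, and Apoa4 with 210 and 4, and their sum was 1901 to 2121 CPM in WT and 77.8 to 136 CPM in cancer. Of 6 tested stem cell markers, Smoc2 (258-fold by pooled reads) and Slc12a2 (log2 fold change −2.28) were called lower and Clu (2.80) higher in cancer, and Axin2 was called higher between the mixed cultures alone (3.57 ± 0.80, adjusted p = 0.0058). Avil, the 1 tuft cell marker tested, was called higher in cancer (3.31 ± 0.61, adjusted p = 0.000321). The defining tuft gene Dclk1 had 2 and 1 reads in A01 and A05 (pure WT) and 0 in all mixed WT and cancer libraries, too few to compare the genotypes.

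**Figure D3:**
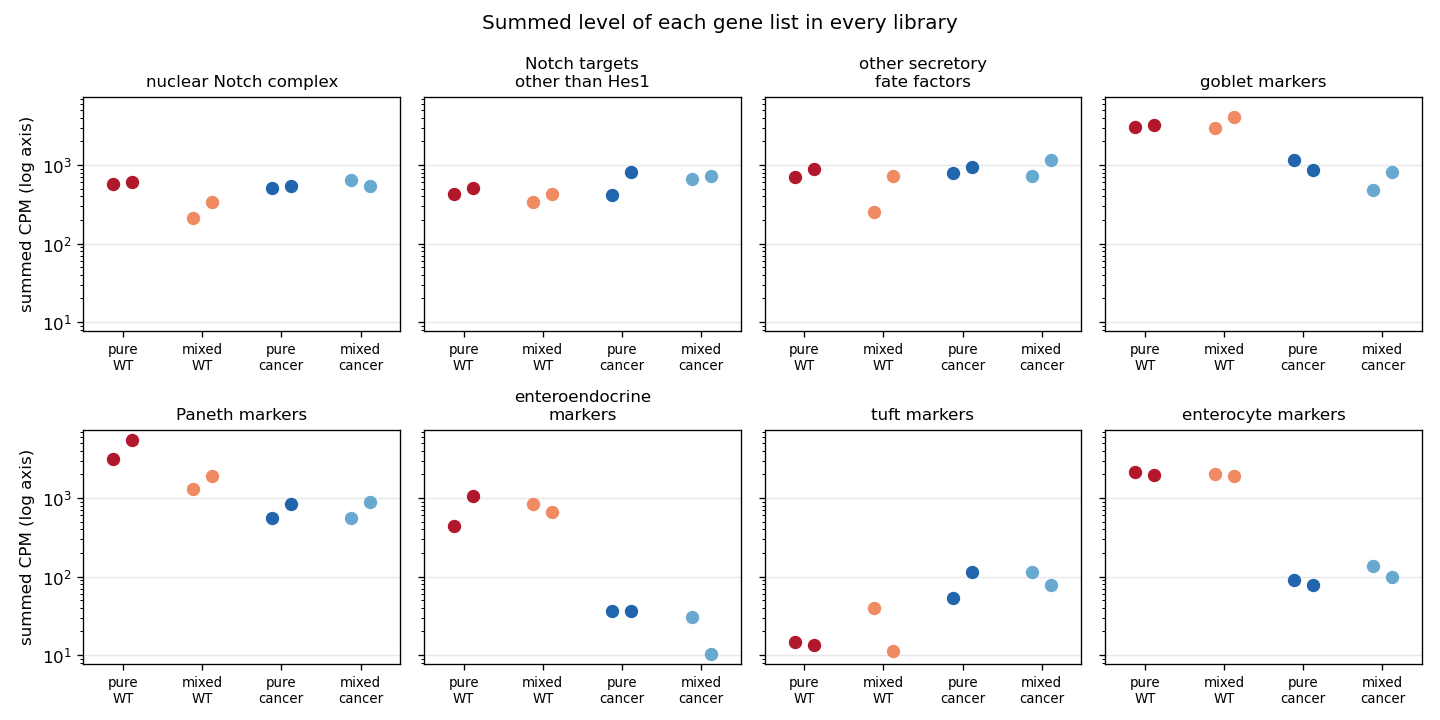
Summed CPM of the genes of each list (log axis) in every library, by group, each point being 1 library. Goblet, Paneth, enteroendocrine and enterocyte marker sums lie lower in every cancer library than in every WT library, while the sums of nuclear complex genes and of other fate factors overlap.

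**Figure D4:**
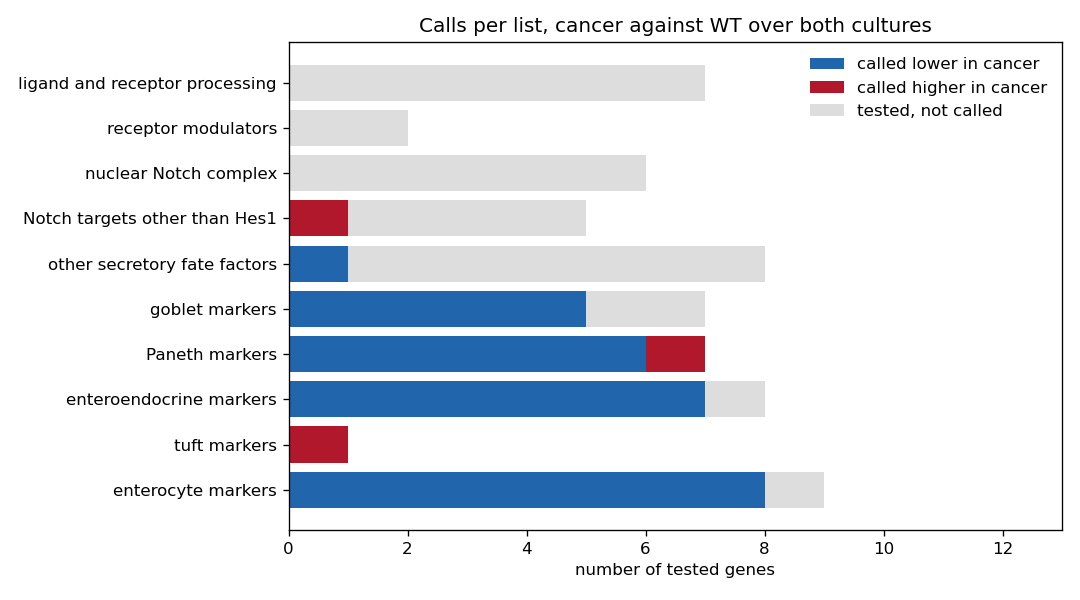
Number of tested genes per list (full bar) and of those called lower or higher in cancer against WT over both cultures (edgeR, adjusted p below 0.05). Called were 7 of 8 enteroendocrine, 7 of 7 Paneth, 8 of 9 enterocyte and 0 of 6 nuclear complex genes, beside 14.2% of all tested genes. Lists were not tested against each other, and many markers passed the filter through their WT level.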

How the data were processed

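CEL-Seq libraries were made from sorted organoid cells. Per the paper and the processing notes, the authors aligned reads to the mm10 RefSeq transcriptome with BWA, discarded multi-mapping reads, counted with featureCounts and tested with DESeq2 1.22.2. The authors deposited read counts per gene and counts of distinct molecule barcodes (4 bases, so at most 256 per gene). Their results table of 1 comparison was not used. Here, 2 entries that are not mouse genes were removed, and read counts were fitted with edgeR 4.0.16 (R 4.3.3; TMM on the tested genes, filterByExpr with a minimum count of 10, 1 quasi-likelihood fit of all 8 libraries, 6 contrasts, Benjamini-Hochberg adjustment over 5264 genes). A call is an adjusted p below 0.05. CPM used the same TMM-scaled library sizes. Depth was 73109 to 4733121 reads per library. Pooled ratios have exact 95% conditional binomial intervals, and bounds use 3 reads over a group. Both count reads rather than molecules, so the intervals are too narrow where several reads share a barcode. The fit was tested on simulated data.

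The 10 genes and the lists were chosen with earlier results of these data known. All 10 were named, and from each list the genes called, at most the 6 with the smallest adjusted p per comparison and list. Mmp7, Spink4, Cpe, Xbp1, Rbpj, Jag2 and Dclk1 were named after their values were seen. An allele of the cancer line and a list gene are not reported here. Alternatives were barcode counts, median-of-ratios factors (as in DESeq2), no filter, a minimum count of 50, the 4 libraries of a comparison alone, DESeq2 1.42.0, and leaving out each library. Positions are from GENCODE vM21 and promoters from RefSeq (GRCm38.p6). GENCODE places exons of other genes over exons of Notch1, Notch2, Dll1, Dll4, Gfi1 and Neurog3, and how the counting used strand is not given in the sources used here.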

Additional observations from a re-analysis of the deposited data

How the results depend on the processing

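Neurog3 was the firmer of the 2 calls. Over both cultures, barcode counts called 1 of the 10 genes (Neurog3, since Atoh1 fell below the filter) and a minimum count of 50 called 0, because Hes1 alone was then tested. Leaving out 1 library at a time gave 0 to 2 calls. In pure cancer against pure WT, barcode counts, median-of-ratios factors and DESeq2 each called 1 gene (Neurog3), a minimum count of 50 called 0, and leaving out 1 library gave 0 to 2. Between the mixed cultures, leaving out 1 library gave 0 to 1. For mixing in WT cells, mixing in cancer cells and the difference between them, every alternative called 0.

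Hes1 kept its direction in pure cancer against pure WT under every alternative run (−0.96 to −0.37) but not in the other 5 comparisons. With barcode counts, its log2 fold change turned to 0.070 by mixing in WT cells and to 0.032 for the difference of the mixing effects. Leaving out 1 library at a time moved the WT mixing value from −2.01 (without A06) to 0.23 (without A02), the cancer mixing value from −0.19 (A08) to 0.35 (A04), with −0.13 without A03, and the difference from −2.04 (A06) to 0.20 (A02). Cancer against WT ran from −0.92 (A02) to 1.34 (A06) between the mixed cultures and from −0.82 (A02) to 0.32 (A06) over both. None passed the threshold. No paired analysis was possible because the labels give the groups no shared replicate numbers, and pairing by well order would be a guess. With barcodes in place of reads, scaled to total barcodes without TMM factors, 25 of 40 mean levels moved by more than the SD between libraries. The shallow libraries limit what can be said of the 7 sparse genes: at A02's depth a gene at 39.3 CPM can go unseen.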
